A study of Bubalus bubalis with 12 samples.

Results

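Desmosomes are cell junctions that join the keratin filaments of neighbouring cells and give stratified epithelia, such as the keratinised lining of the rumen, their resistance to mechanical stress. In each junction the desmosomal cadherins, which are desmogleins and desmocollins, bridge the gap between cells, the armadillo proteins plakoglobin and the plakophilins bind their tails inside the cell, and desmoplakin links this plaque to the keratins. Which desmogleins, desmocollins and plakophilins a cell uses changes between simple and stratified epithelia and between the layers of a stratified one.

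The desmosome genes described here are the genes of the deposited expression table whose name is DSG1, DSG2, DSG3, DSC2, DSC3, DSP, JUP, PKP1, PKP2 or PKP3. Of these 10 names, 8 were matched to a gene, among 34037 genes in all, and the desmocollins DSC2 and DSC3 were not analysed here under those names. All 8 genes matched the RefSeq gene table of the NDDB_SH_1 assembly by gene ID, 6 of them also by symbol.

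The tissue was ruminal wall (rumen wall in the labels) of 12 Italian Mediterranean dairy buffaloes (Bubalus bubalis), frozen after slaughter, with 1 library of total RNA per animal. The 6 control animals were fed a total mixed ration (TMR), and the 6 treated animals a TMR that contained 30% green feed, which was ryegrass. Expression is given as FPKM, the number of fragments of a gene relative to its length and to the library total. This puts genes as well as animals on one scale, but a listed level need not hold all RNA of a gene, as set out below for KRT18. The reads worked out from these values summed to between 10531245 and 12947982 in the control animals and between 11854934 and 12729720 in the treated animals. These sums are lower bounds, since a factor shared by all reads of a gene cannot be seen, and totals fitted to whole gene lengths ran from 10531558 to 12948393 over the 12 animals. The question put to the desmosome genes was whether their levels differed between the diets and how they varied between animals.

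The libraries of control replicate 6 and treated replicate 6 stood apart from the rest. Over the 12760 genes tested, the correlation of log2 levels between 2 of the other 10 libraries had a median of 0.957 and ranged from 0.929 to 0.973. Between these 10 and either replicate 6 it had a median of 0.924 and ranged from 0.895 to 0.941, and between both replicates 6 it was 0.944. Control replicate 6 had the fewest reads, 10531245, whereas treated replicate 6 had the most reads of its group, 12729720, and the fewest genes above 0, 17766. Both animals are included below, and estimates and correlations without them are given beside many of those for all animals.

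The 8 desmosome genes fell into an abundant and a scarce set. DSG3, DSP, PKP1, PKP3 and JUP had mean levels over the 12 animals of 686, 553, 288, 231 and 196 FPKM, which placed each of them above at least 97.5% of the 12760 genes tested. DSG2, PKP2 and DSG1 had means of 4.43, 3.85 and 3.48 FPKM and lay above 35.6%, 32.4% and 30.3% of tested genes. The sets were separated in every animal, with the lowest gene of the abundant set above the highest of the scarce set by at least 10.9 times, a ratio reached in treated replicate 6 with JUP at 55.0 and PKP2 at 5.06 FPKM. Within the abundant set, DSP exceeded PKP1 in 12 of 12 animals and PKP1 exceeded PKP3 in 11 of 12, but DSG3 exceeded DSP in only 8 of 12 and PKP3 exceeded JUP in 7 of 12, so these neighbours did not differ beyond the spread between animals. In the scarce set, DSG2 exceeded PKP2 in 8 of 12 animals and PKP2 exceeded DSG1 in 7 of 12, and their order was not clear either. All 8 genes passed the filter on low values, with 84 to 716 reads per animal for DSG1, the least covered of them, and 31765 to 109310 for DSP.

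**Figure D1:**
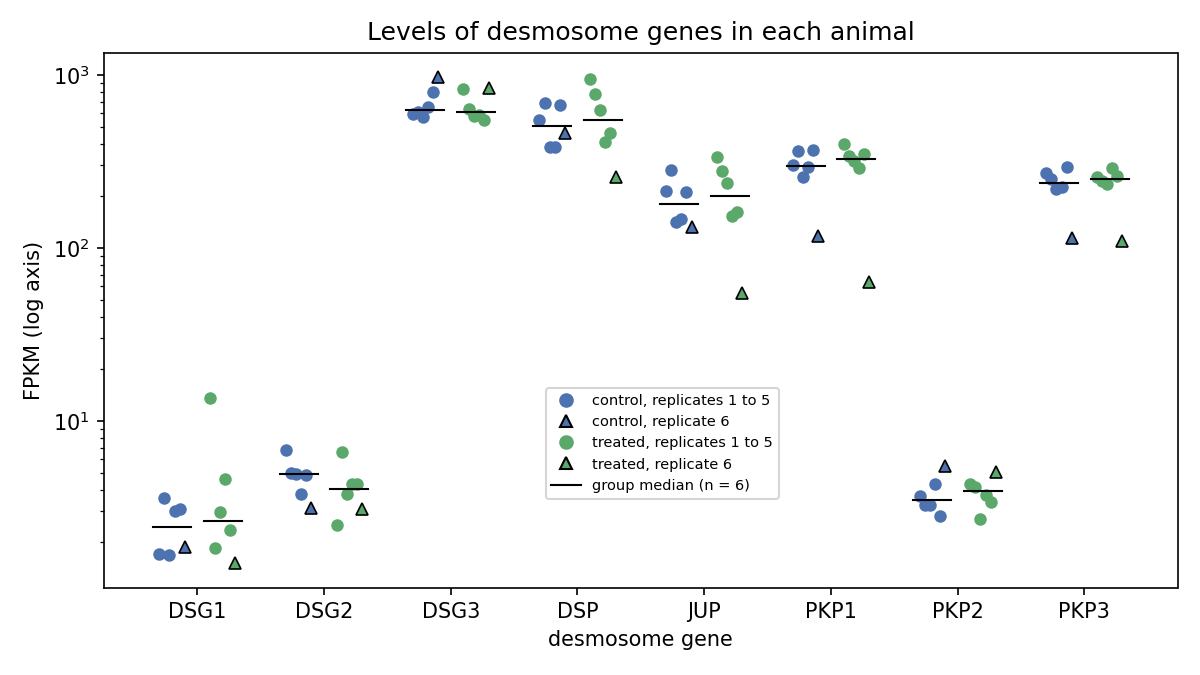
Level of each desmosome gene in FPKM (y axis, logarithmic) in each of the 12 animals, with the control group in blue, the treated group in green, replicate 6 of each group as a triangle and the group median as a line (n = 6 per group). The groups overlap for all 8 genes, the replicates 6 are the lowest animals of their groups for JUP, PKP1 and PKP3, and DSG1 in treated replicate 1 reaches 13.6 FPKM.

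Among the desmogleins, DSG3 (gene ID 102405599), the isoform typical of the basal layers of stratified epithelium and of mucosa, was by far the most abundant. DSG3 was between 575 and 971 FPKM in the control animals, with a median of 629, and between 550 and 843 FPKM in the treated animals, with a median of 614. The ranges overlapped nearly in full, and the highest animals of each group, control replicate 6 and treated replicate 6, were the libraries that stood apart. The log2 fold change of treated over control animals, on the scale of log2(FPKM + 0.01), was -0.056 (SE 0.17, 95% interval -0.41 to 0.30), with an exact permutation p of 0.703. It was -0.027 (SE 0.14) without both replicates 6. With all animals, DSG3 varied less between animals of a group than the other 7 genes, with a pooled SD of 0.29 on the log2 scale, which was larger than that of only 35.05% of tested genes. Without both replicates 6 its pooled SD was 0.22, above those of PKP1, 0.20, and PKP3, 0.15.

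DSG1 (gene ID 102406136), the desmoglein of the upper layers of skin, was between 1.68 and 3.59 FPKM in the control animals, with a median of 2.44, and between 1.50 and 13.6 FPKM in the treated animals, with a median of 2.64. Treated replicate 1 was far above all others, the next animal being treated replicate 4 with 4.63 FPKM, and the remaining treated animals lay within or just below the range of the control animals. Treated replicate 1 also had the lowest score of smooth muscle and fibroblast markers, -1.55, and the highest of epithelium markers, 0.68. Whether this bears on DSG1 in that animal was not tested. For DSG1 the log2 fold change was 0.46 (SE 0.45, 95% interval -0.52 to 1.43), with an exact permutation p of 0.442. It rested on that animal, since without treated replicate 1 it was 0.044 (SE 0.31), while it was 0.61 (SE 0.48) without both replicates 6. Its pooled SD of 0.89 on the log2 scale was the largest among the 8 genes and exceeded that of 93.1% of tested genes.

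DSG2 (gene ID 102405253), the desmoglein found in all desmosome-bearing tissues and the usual one of simple epithelia and heart, was between 3.15 and 6.80 FPKM in the control animals, with a median of 4.89, and between 2.499 and 6.57 FPKM in the treated animals, with a median of 4.06. The lowest animal was treated replicate 1, in which DSG1 was highest, and the groups overlapped although only 1 of 6 treated animals exceeded the control median. In the fit the log2 fold change was -0.24 (SE 0.24, 95% interval -0.74 to 0.27), with an exact permutation p of 0.361, and was -0.28 (SE 0.24) without both replicates 6. Its size depended on single animals, being -0.11 (SE 0.23) without treated replicate 1, -0.12 (SE 0.24) without control replicate 1 and -0.38 (SE 0.22) without treated replicate 2.

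DSP (gene ID 102411643) encodes desmoplakin, the plakin that ties the plaque to the keratin filaments. It was between 381 and 690 FPKM in the control animals, with a median of 509, and between 259 and 947 FPKM in the treated animals, with a median of 548. The treated animals held both extremes, replicate 1 at the top and replicate 6 at the bottom, so that the control range lay inside the treated one. Its log2 fold change was 0.065 (SE 0.28, 95% interval -0.54 to 0.67), with an exact permutation p of 0.835. It was 0.25 (SE 0.26) without both replicates 6.

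JUP (gene ID 102395630) encodes plakoglobin, an armadillo protein that binds cadherin tails in desmosomes and in adherens junctions. Its levels ran from 132 to 282 FPKM in the control animals, with a median of 180, and from 55.0 to 336 FPKM in the treated animals, with a median of 199. As for DSP, the treated animals held both extremes, and replicate 6 was the lowest animal of either group. For JUP the log2 fold change was -0.035 (SE 0.37, 95% interval -0.82 to 0.75), with an exact permutation p of 0.944. Its sign changed when single animals were left out, and it was 0.30 (SE 0.24) without treated replicate 6 and 0.21 (SE 0.25) without both replicates 6.

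PKP1 (gene ID 102398477), the plakophilin typical of the suprabasal layers of stratified epithelia, ran from 117 to 366 FPKM in the control animals, with a median of 297, and from 63.5 to 399 FPKM in the treated animals, with a median of 329. Apart from both replicates 6, at 117 and 63.5 FPKM, every animal lay between 256 and 399 FPKM. The log2 fold change was -0.057 (SE 0.41, 95% interval -0.94 to 0.83), with an exact permutation p of 0.898. It was -0.29 (SE 0.39) without control replicate 6, 0.34 (SE 0.25) without treated replicate 6 and 0.11 (SE 0.13) without both. The pooled SD of its log2 level was 0.83 with all animals and 0.20 without both replicates 6.

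PKP3 (gene ID 102409118), which occurs in most epithelia and in all layers of stratified ones, ran from 114 to 293 FPKM in the control animals, with a median of 238, and from 110 to 289 FPKM in the treated animals, with a median of 250. It had the same low animals as PKP1, with every animal but both replicates 6 between 218 and 293 FPKM. Its log2 fold change was 0.019 (SE 0.26, 95% interval -0.53 to 0.57), with an exact permutation p of 0.900. Without both replicates 6 it was 0.034 (SE 0.10, 95% interval -0.19 to 0.26), and the pooled SD went from 0.50 to 0.15, the smallest of the 8 genes in the remaining animals.

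PKP2 (gene ID 102391192), the plakophilin of simple epithelia and heart, ran from 2.82 to 5.50 FPKM in the control animals, with a median of 3.48, and from 2.72 to 5.06 FPKM in the treated animals, with a median of 3.93. Unlike the other plakophilins it was highest in both replicates 6, and the groups overlapped. The log2 fold change was 0.041 (SE 0.19, 95% interval -0.38 to 0.46), with an exact permutation p of 0.825, and was 0.073 (SE 0.17) without both replicates 6.

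Across the 8 desmosome genes no difference between the diets exceeded the spread between animals. In the limma fit over all genes, 0 of the 8 genes had a nominal p-value below 0.05, against 1.27% of all genes tested (162 of 12760). None had an adjusted p-value below 0.05 (0 of 8), and neither did any other gene tested (0 of 12760, or 0%), with an adjusted p of 1.00 for each of the 8 genes. None of the 8 genes had groups that did not overlap, which was the case for 0.0549% of tested genes (7 of 12760). The estimates were higher in treated animals for 4 genes and lower for 4, with a median log2 fold change of -0.0079 over the 8 genes and of 0.0051 over all genes tested. Without both replicates 6, 0 of the 8 genes had a nominal p-value below 0.05, against 2.48% of tested genes, and the estimates were higher in treated animals for 6 genes and lower for 2, with medians of 0.091 and 0.023. The intervals bound what could have been missed, more closely for DSG3, where they include log2 changes from -0.41 to 0.30, than for DSG1, where they reach 1.43. The pooled SD between animals of a group was above the median of all genes tested, 0.36, for 6 of the 8 genes, with a median of 0.52 over the 8 genes. Without both replicates 6 it was above the median of all genes tested, then 0.27, for 4 of the 8, with a median of 0.33 over the 8 genes.

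DSG3 made up at least 98.1% of the summed FPKM of DSG1, DSG2 and DSG3 in every animal, with medians of 98.9% in the control and 98.8% in the treated animals. DSG1 reached 1.61% of that sum in treated replicate 1, and was at or below 0.775% in every other animal. Of the summed FPKM of the plakophilins, PKP1 made up a median of 54.5% in the control and 57.0% in the treated animals and PKP3 44.99% and 42.5%. The share of PKP1 was lowest in treated replicate 6, at 35.6%, where PKP3 took 61.6%, while in the 10 animals other than both replicates 6 it lay between 49.7% and 60.4%. PKP2 was at 2.32% in control replicate 6 and 2.83% in treated replicate 6, against 0.425% to 0.826% in the other 10 animals, in which PKP1 and PKP3 were not low. The ratio of JUP to DSP was between 0.314 and 0.408 in those 10 animals, 0.284 in control replicate 6 and 0.213 in treated replicate 6. The summed level of the 8 genes ran from 1585 to 2358 FPKM in the control animals and from 1340 to 2790 FPKM in the treated animals, with medians of 1878 and 1901 FPKM. The shares were not tested between the diets.

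How the desmosome genes varied together was described by the correlation of log2 levels over the 12 animals for all 28 pairs, of which 16 were positive and 12 negative. Two-sided permutation tests with Benjamini-Hochberg adjustment over the 28 pairs gave an adjusted p below 0.05 for 6 pairs by Pearson's r and for 3 by Spearman's rho. How many pairs of other tested genes would pass was not determined, so these counts are not shown to be particular to the desmosome genes. The 6 pairs by Pearson's r became 1 without treated replicate 6, and 3 without control replicate 2, without control replicate 6 or without both replicates 6. Since the libraries of both replicates 6 stood apart from the others, each r is given with and without them.

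The tightest relation was that of DSP and JUP, which held in either group and without both replicates 6. Pearson's r was 0.95 (permutation p = 1e-05, the smallest that the resamples can give, adjusted p = 0.00028) and Spearman's rho was 0.92 (permutation p = 2e-05). It was 0.88 in the control and 0.97 in the treated animals, 0.93 without the animals farthest from the median of DSP (treated replicates 1 and 6), and 0.97 without both replicates 6. Animals with much desmoplakin mRNA thus had much plakoglobin mRNA in either diet group. PKP1 went with both, with r = 0.87 for JUP and PKP1 (permutation p = 5e-05, adjusted p = 0.0007, rho = 0.86 with permutation p = 0.00062) and r = 0.72 for DSP and PKP1 (permutation p = 0.003, adjusted p = 0.021, rho = 0.85 with permutation p = 0.0008). Within the control and the treated animals these were 0.72 and 0.92 for JUP and PKP1, and 0.46 and 0.82 for DSP and PKP1. Without treated replicates 1 and 6, the animals farthest from the median of JUP and of DSP, r was 0.62 for JUP and PKP1 and 0.42 for DSP and PKP1, and without both replicates 6 it was 0.77 and 0.83, with adjusted permutation p-values of 0.0749 and 0.0361, so that the call was lost for JUP and PKP1.

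PKP1 and PKP3 had an r of 0.94 (permutation p = 0.00116, adjusted p = 0.0108), with a lower rho of 0.65 (permutation p = 0.0264, adjusted p = 0.147) and an r of 0.97 in the control and 0.96 in the treated animals. That relation rested on both replicates 6, which are also the animals farthest from the median of PKP1, and without them r was 0.41. The same held for JUP and PKP3, with r = 0.72 (permutation p = 0.00773, adjusted p = 0.0361, rho = 0.52 with permutation p = 0.0876), 0.67 and 0.81 in the control and treated animals, 0.45 without treated replicates 1 and 6 and 0.14 without both replicates 6. PKP2 and PKP3 were the only pair with a negative r among the 6, at -0.72 (permutation p = 0.00746, adjusted p = 0.0361, rho = -0.45 with permutation p = 0.146). It was -0.86 in the control and -0.58 in the treated animals, -0.66 without control replicate 6 and treated replicate 3, and -0.13 without both replicates 6.

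No relation of DSG3 to a plaque gene had an adjusted permutation p below 0.05 over all 12 animals. With DSP its r was -0.0041 (permutation p = 0.99, adjusted p = 0.99, rho = 0.035 with permutation p = 0.919). In the control and treated animals that r was 0.10 and -0.057, and without both replicates 6, which are here also the animals farthest from the median of DSG3, it was 0.61. With JUP its r was -0.26 (permutation p = 0.42, adjusted p = 0.49, rho = -0.15 with permutation p = 0.633, and -0.34 and -0.26 within the control and treated animals), and 0.50 without both replicates 6. For DSG3 and PKP1 the sign turned, from an r of -0.55 over 12 animals (permutation p = 0.0506, adjusted p = 0.129, rho = -0.10 with permutation p = 0.747, and -0.66 and -0.53 within the control and treated animals) to 0.62 over the 10 others. DSG3 had an r of 0.63 with PKP2 (permutation p = 0.0293, adjusted p = 0.0999, rho = 0.67 with permutation p = 0.0193, and 0.50 and 0.82 within the control and treated animals) and of -0.64 with PKP3 (permutation p = 0.0321, adjusted p = 0.0999, rho = -0.31 with permutation p = 0.331, and -0.65 and -0.63 within the groups). Both relations rested on both replicates 6, without which r was 0.20 and 0.31. DSG1 and DSG2 were opposed, with r = -0.49 over 12 animals (permutation p = 0.108, adjusted p = 0.179, rho = -0.23 with permutation p = 0.469, and -0.14 and -0.57 within the control and treated animals) and -0.84 without both replicates 6 (permutation p = 0.00387, adjusted p = 0.0361). Over all animals the relation rested on those farthest from the median of DSG1, treated replicates 1 and 4, since r was -0.042 without them. In treated replicate 1 DSG1 was highest and DSG2 lowest, and r was -0.058 over the other 11 animals, but -0.63 over the 9 left without both replicates 6 as well. Without both replicates 6, 3 of the 28 pairs had an adjusted permutation p below 0.05, namely DSP with JUP, DSP with PKP1, and DSG1 with DSG2, of which 2 were also among the 6 over all animals.

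**Figure D2:**
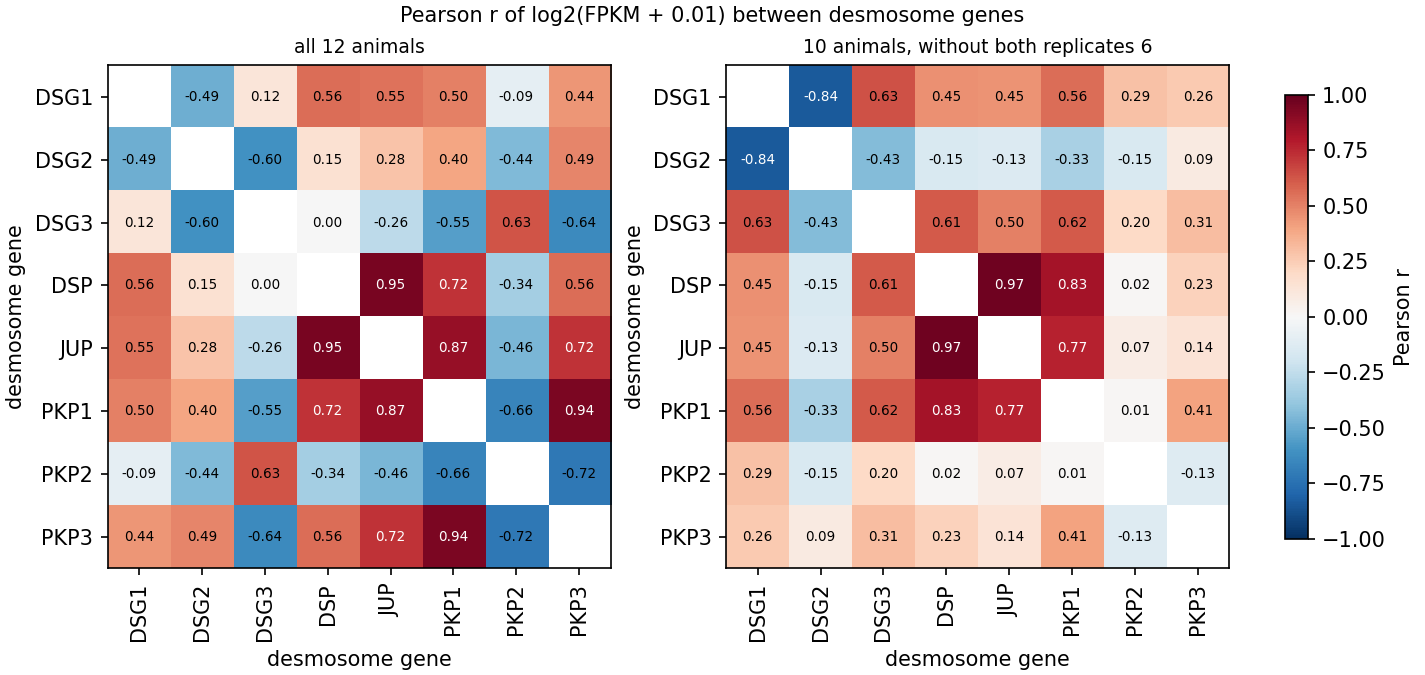
Pearson's r of log2(FPKM + 0.01) for each of the 28 pairs of desmosome genes, over all 12 animals (left) and over the 10 animals other than both replicates 6 (right), coloured from -1 in blue to 1 in red. DSP and JUP are at 0.95 and 0.97, whereas PKP1 and PKP3 go from 0.94 to 0.41 and DSG3 and PKP1 from -0.55 to 0.62.

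**Figure D3:**
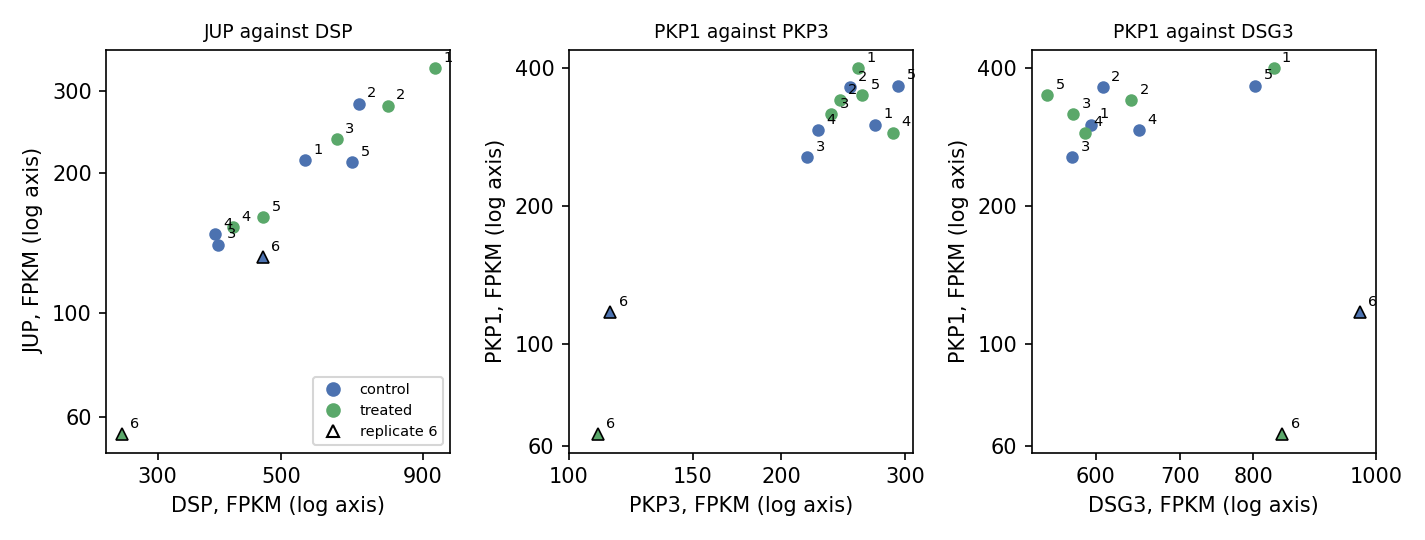
Levels in FPKM (both axes logarithmic) of JUP against DSP, PKP1 against PKP3, and PKP1 against DSG3, with 1 point per animal labelled by its replicate number, control animals in blue, treated animals in green and replicate 6 of each group as a triangle. JUP is higher where DSP is higher among the other 10 animals as well (r = 0.97), while the points of both replicates 6 lie far from the rest for PKP1 and PKP3.

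The desmosomal cadherin genes lie side by side in the genome, and the RefSeq table of NDDB_SH_1 gives their order as DSC1, DSG1, DSG4, DSG3 and DSG2. The authors aligned to another assembly, UOA_WB_1, so only the order of genes and overlaps with DSG3 are used. Next to DSC1 on its other side stand LOC102406999 and then LOC102414570, protein-coding genes without a name of their own, which were singled out after their levels were seen. Whether they encode desmocollins could not be checked. Both were about as abundant as DSP, JUP, PKP1 and PKP3, LOC102406999 at 390 to 843 FPKM and LOC102414570 at 233 to 384 FPKM over the 12 animals. DSC1, a desmocollin of the upper layers of skin, was at 4.72 to 8.67 FPKM, and DSG4, a desmoglein of hair follicles, was listed at 0 in all 12 animals. TTR, the neighbour of DSG2 beyond the cluster, reached at most 1.82 FPKM. Genes with very different listed levels thus stood side by side in the cluster. A listed 0 need not mean that a gene is silent, since KRT18 was also listed at 0 in all 12 animals while KRT8, the keratin it pairs with, had a mean of 17.5 FPKM. The log2 fold changes between the diets were -0.051 (SE 0.19) for LOC102406999, 0.055 (SE 0.14) for LOC102414570 and 0.091 (SE 0.16) for DSC1, with exact permutation p-values of 0.799, 0.706 and 0.558, and without both replicates 6 they were 0.033, 0.12 and 0.25. In NDDB_SH_1, LOC123331265 also stands between DSG4 and DSG3, and TRNAG-GCC between DSG3 and DSG2. Neither was analysed here, and the spans of both overlap that of DSG3. Reads of genes that overlap on the same strand cannot be told apart.

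The levels of markers of cell types were set beside those of the desmosome genes, since in samples of whole tissue fewer cells of a type and less RNA per cell cannot be told apart. Of 7 epithelium markers, 6 were analysed here, all above 0, and their summed level was 911 to 2341 FPKM in the control and 1052 to 2800 FPKM in the treated animals. The lowest sums, 911 and 1052 FPKM, were those of both replicates 6, in which KRT5, the keratin of basal cells and the most abundant of these markers, was at 451 and 498 FPKM against 1179 to 2372 FPKM in the other 10 animals. SFN was lowest there too, at 90.6 and 40.8 FPKM, but CLDN4, at 185 and 282 FPKM, and CDH1, at 111 and 93.4 FPKM, were not low in both. EPCAM was lowest of all animals in control replicate 6, at 36.6 FPKM, and highest of all in treated replicate 6, at 108 FPKM, and TP63 was at 37.0 FPKM in control replicate 6 and lowest of all in treated replicate 6, at 29.3 FPKM. Of 7 smooth muscle markers, 6 were above 0 in all 12 animals and CNN1 was listed at 0 in treated replicates 2 and 6. Their summed level was only 26.9 to 47.3 FPKM in the control and 14.2 to 38.0 FPKM in the treated animals, so that little muscle RNA was measured in tissue labelled as rumen wall. SMTN (smoothelin), the most abundant of them, was lowest in both replicates 6, at 4.56 and 3.47 FPKM. No other smooth muscle marker was lowest of its group in both. The 6 fibroblast markers summed to 40.8 to 258 FPKM in the control and 17.5 to 172 FPKM in the treated animals, with COL3A1 the most abundant. All 6 smooth muscle and all 6 fibroblast markers tested had a negative estimate, with median log2 fold changes of -0.75 and -0.66, and of -0.72 and -0.74 without both replicates 6, where SMTN went from -0.034 to 0.037 and the other estimates were still negative. DES (desmin) alone had a nominal p-value below 0.05, with a log2 fold change of -1.04 (SE 0.42), an exact permutation p of 0.0519 and an adjusted limma p of 1.00, but without both replicates 6 it was -0.97 with a nominal limma p of 0.0623. With the mean standardized log2 level of smooth muscle and fibroblast markers as a covariate, the estimate went to -0.30 (SE 0.25) for DSP and to -0.46 (SE 0.34) for JUP. It went to -0.36 (SE 0.45) for PKP1 and to -0.00047 (SE 0.45) for DSG1. The other estimates moved less, to -0.17 for DSG2, -0.13 for DSG3, 0.022 for PKP2 and -0.071 for PKP3. That score ran from -0.26 to 0.90 in the control and from -1.55 to 0.69 in the treated animals, so the fit does not fully separate it from diet. In that fit 0 of the 8 desmosome genes had a nominal p-value below 0.05, against 314 of the 12760 genes tested. Endothelium markers summed to 5.42 to 28.4 FPKM over the 12 animals, immune cell markers to 7.39 to 20.8 FPKM, glia and neuron markers to 2.12 to 15.7 FPKM with SOX10 and ELAVL4 listed at 0, and cardiac muscle markers to at most 1.00 FPKM with MYL7 listed at 0.

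Of 16 relations between a desmosome gene and the mean log2 level of epithelium or smooth muscle markers, 4 had an adjusted permutation p below 0.05 by Pearson's r, and all 4 were with the epithelium markers. By Spearman's rho the adjusted permutation p was 0.0476 for DSP, JUP and PKP1 but 0.0544 for PKP3. The mean of the epithelium markers was lowest in both replicates 6, the libraries that stood apart. How many other tested genes are related to it was not determined, so the count is not shown to be particular to the desmosome genes. PKP3 had the highest r, at 0.90 (permutation p = 0.00153, adjusted p = 0.0152, rho = 0.70 with permutation p = 0.0136), followed by PKP1 at 0.87 (permutation p = 0.00285, adjusted p = 0.0152, rho = 0.73 with permutation p = 0.00893). Within the control and treated animals r was 0.99 and 0.82 for PKP3 and 0.97 and 0.86 for PKP1. Both replicates 6 are the animals farthest from the median of either gene, and without them r was 0.46 for PKP3 and 0.60 for PKP1. JUP had an r of 0.79 (permutation p = 0.0021, adjusted p = 0.0152, rho = 0.78 with permutation p = 0.00389) and DSP one of 0.70 (permutation p = 0.0102, adjusted p = 0.041, rho = 0.73 with permutation p = 0.00868). These were 0.70 and 0.92 for JUP and 0.44 and 0.89 for DSP within the control and treated animals, 0.64 and 0.44 without treated replicates 1 and 6, and 0.73 and 0.75 without both replicates 6. For DSG3 the r with the epithelium markers was -0.41 over 12 animals (permutation p = 0.177, adjusted p = 0.354, rho = 0.042 with permutation p = 0.905, and -0.65 and -0.14 within the control and treated animals), but 0.74 without both replicates 6, which are the animals farthest from its median. What part the epithelium content had in this was not tested.

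Among 8 other genes of desmosomes, DSG4 was listed at 0, 7 were tested, and 5 estimates were higher and 2 lower in treated animals, with a median log2 fold change of 0.083, and of 0.050 without both replicates 6. PKP4, an armadillo protein of the p120 family that occurs in desmosomes and adherens junctions, was the exception to the overlap seen for the 8 desmosome genes. PKP4 was between 17.9 and 20.6 FPKM in the control animals, with a median of 18.5, and between 20.7 and 22.6 FPKM in the treated animals, with a median of 21.3. Every treated animal lay above every control animal, although by little, as for 0.0549% of tested genes (7 of 12760). The log2 fold change was 0.19 (SE 0.083), with an exact permutation p of 0.00216, the smallest that groups of 6 and 6 allow, a nominal limma p of 0.0420 and an adjusted one of 1.00, and it was 0.18 without both replicates 6. PKP4 was the only gene of the 7 with a nominal p-value below 0.05, against 1.27% of all genes tested. The abundant genes of that list were PERP, a tetraspan membrane protein of desmosomes, at 491 to 941 FPKM over the 12 animals, and the plakins PPL (periplakin) and EVPL (envoplakin) at 13.6 to 55.4 and 8.88 to 43.5 FPKM. PPL and EVPL were lowest in both replicates 6, like PKP1 and PKP3, whereas PERP was highest in treated replicate 6.

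In the remaining lists of genes that work with desmosomes, no gene had a nominal p-value below 0.05 over all 12 animals, against 1.27% of all genes tested. Of the keratins and other intermediate filaments to which desmosomes attach, 9 genes were tested, with a median log2 fold change of 0.079 (0.067 without both replicates 6), and KRT13, KRT5 and KRT15 were the most abundant, with control medians of 1393, 1607 and 801 FPKM and treated medians of 1530, 1641 and 918 FPKM. The 9 genes of adherens junctions, the actin-bound junctions that share plakoglobin with desmosomes, had a median of 0.018 (-0.0062 without both replicates 6), and their most abundant genes CTNNA1, CTNNB1 and CDH1 (medians in control animals of 191, 183 and 89.8 FPKM) were not low in both replicates 6. NECTIN1, at 11.7 and 5.66 FPKM, and NECTIN4, at 27.9 and 36.8 FPKM, which were picked after their levels were seen, were the lowest of their groups there. Of the genes of hemidesmosomes, which anchor basal cells to the basement membrane, 8 were tested with a median of 0.13 (0.18 without both replicates 6). COL17A1, the most abundant of these, was at 57.5 and 53.2 FPKM in both replicates 6 and had group medians of 134 and 138 FPKM, and ITGB4 was likewise lowest there, at 27.1 and 18.6 FPKM, while ITGA6, at 75.7 and 50.5 FPKM, was highest of its group in control replicate 6 and lowest in treated replicate 6. The list of desmosome proteases, their inhibitor SPINK5 and calcium pumps (7 tested, median -0.044, or -0.023 without both replicates 6) was led by SPINK5, CTSV and ATP2C1, with means over the 12 animals of 199, 118 and 40.5 FPKM, and KLK5 and KLK7 were listed at 0. The squamous transcription factors (9 tested, median 0.026, or 0.068 without both replicates 6) included KLF5 and GRHL1, with treated medians of 125 and 41.9 FPKM.

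For the mean standardized level of the 8 desmosome genes over the 12 animals, with group means removed, the genes most like it among those tested were WBP2, EPHB3, ST14, PLBD2 and CAPN1, with Pearson's r of 0.97, 0.96, 0.95, 0.95 and 0.95, and the most opposed were GHITM, NDUFV2 and SFT2D3, with -0.98, -0.97 and -0.96. These values were picked as extremes among all tested genes and carry no p-value. EPHB3 is a receptor for ephrins, ST14 the epithelial membrane protease matriptase, CAPN1 a calcium-dependent protease and NDUFV2 a subunit of mitochondrial complex I. All 5 genes most like the desmosome genes were lowest in treated replicate 6, and the 3 opposed genes were highest there. That follows largely from how they were picked, since the mean itself was lowest in treated replicate 6, at -1.13. The mean did not stand for all 8 genes alike, since r to it was 0.94 for JUP, 0.92 for DSP, 0.83 for PKP1, 0.72 for PKP3 and 0.69 for DSG1, but 0.21 for DSG2, -0.084 for DSG3 and -0.28 for PKP2. Each of the 8 genes is part of the mean, which raises its r, and these values include both replicates 6. Without both replicates 6, r to the mean was between 0.91 and 0.96 for the 5 genes most like it.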

How the data were processed

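Total RNA libraries of the ruminal wall of 12 buffaloes were sequenced as stranded paired ends. Per the submitters' processing notes and the paper's methods, the authors checked reads with FastQC 0.11.5, trimmed them with Trimmomatic 0.39, used STAR 2.5.2b for alignment (to UOA_WB_1), and obtained strand-specific gene counts from featureCounts 2.0.0. The authors deposited FPKM, which divide by gene length and library total. Of 16 value columns, 12 matched the labels of an animal, and 4 were not used here. The columns carry numbers of their own, and replicate numbers here are those of the labels.

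Within a gene, FPKM of all animals were whole multiples (within 0.01) of the value of 1 read for 22972 of 22972 genes above 0, which gave the reads per gene. Genes with at least 40 reads, scaled to the mean library, in at least 1 animal were tested (12760 genes). Depth sets the precision of low genes most.

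The diets were compared with limma 3.58.1 in R 4.3.3 (lmFit, eBayes with trend) on log2(FPKM + 0.01), which understates changes of low genes, adjusted by Benjamini-Hochberg across all tested genes. Named genes were also tested by exact permutation, two-sided, of mean log2 levels over all assignments of the animals (smallest p 0.00216). Correlations used permutation tests with 100000 resamples. Python 3.11.15, numpy 2.4.6, pandas 2.3.3, scipy 1.17.1 and matplotlib 3.10.9 were used, and the methods were tested on simulated data. The desmosome genes and the other lists were chosen with earlier results of these data known. Named from each other list were the 3 most abundant genes and those with a nominal p below 0.05, and, from all tested genes, the 5 most like and 3 most opposed to the mean of the desmosome genes. The level of 1 gene that this rule names is not reported here.

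Alternatives were pseudocounts of 0.1 and 1, no filter, a mean of at least 1 FPKM, median-ratio scaling, voom on the reads, robust eBayes, the replicate number as a block, marker scores as covariates, each animal left out, and the log2 ratio of the group means. Leaving out both replicates 6, and the alternatives for the correlations, were chosen after seeing the data.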

Additional observations from a re-analysis of the deposited data

Results flagged for a closer look

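In 15 quantities (the FPKM of the 8 desmosome genes, the shares of the desmogleins and plakophilins, and the ratio of JUP to DSP), the lowest and the highest animal of each group of 6 were set against the others by Dixon's criterion, and 6 of the 30 groups held an animal far from the rest. Chance alone gives about 1 in 20 groups, and the quantities are not independent, since shares and ratios are made from the same levels. DSG1 in treated replicate 1 was at 13.6 FPKM, with the next treated animal at 4.63 FPKM. PKP1 in treated replicate 6 was at 63.5 FPKM, with the next at 289 FPKM, and PKP3 in the same animal at 110 FPKM, with the next at 236 FPKM. The share of PKP2 among the plakophilins was 2.32% in control replicate 6, with the next control animal at 0.826%, and 2.83% in treated replicate 6, with the next treated animal at 0.700%. The ratio of JUP to DSP was 0.213 in treated replicate 6, with the next at 0.346. Of the 6 values, 5 belong to both replicates 6, whose libraries stood apart over all genes tested as well.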

How the results depend on the processing

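Under all 24 alternatives, 0 tested genes had an adjusted p-value below 0.05 in limma wherever it was run, and 0 of the 8 desmosome genes had a nominal one, the smallest being 0.102. The nominal count over all genes, 162 in the report, was 562 with no filter, 314 and 248 with the smooth muscle and fibroblast score and the epithelium score as covariates, 317 without both replicates 6, and 144 to 331 with each animal left out, the highest being without treated replicate 6. With the replicate number as a block it was 326, 2.01 times as many. The numbers were not taken as pairs, since 4 of 6, not all, same-numbered animals had deviations correlated above 0.1 (-0.013 to 0.41). As a hint of a link, their mean was 0.21 against -0.039 for other numbers, and 7 of 12 animals correlated best with their own number. The block changed no call among the desmosome genes.

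Signs of estimates close to 0 depended on the setting. The estimate for DSG1, 0.46 in the report, was not close to 0, but was -0.00047 with the smooth muscle and fibroblast score. With that score, the log2 fold change was -0.30 for DSP and -0.071 for PKP3, and with the epithelium score -0.044 for DSP and -0.075 for PKP3. Without both replicates 6 (chosen after seeing the data) it was 0.21 for JUP and 0.11 for PKP1, and as the ratio of group means 0.12 and 0.053. With each animal left out it ran from -0.13 to 0.044 for DSG3, -0.10 to 0.27 for DSP, -0.22 to 0.30 for JUP, -0.29 to 0.34 for PKP1, -0.040 to 0.15 for PKP2 and -0.17 to 0.22 for PKP3. DSG2 stayed negative in every setting, from -0.38 to -0.11. The cause was not tested. The median over the desmosome genes, -0.0079, ran from -0.15 to 0.25. The count of correlated pairs, 6, was 3 without both replicates 6 and 1 to 7 with each animal left out, 1 being without treated replicate 6.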
